A study of Drosophila melanogaster with 3 samples.

Results

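The genes described here are 40 genes of the synaptic vesicle cycle and the active zone, measured by single-cell RNA sequencing in Drosophila Kenyon cells (KCs), the intrinsic neurons of the mushroom body. They were taken by symbol from a written list, with no rule on measured values. The list was chosen with earlier results of these data known. All 40 of the 40 listed symbols were among the 17824 features counted. By role they comprise 9 genes of the SNARE fusion machinery, 4 synaptotagmins, 6 genes of the active zone and vesicle priming, 5 vesicle proteins and Rab regulators, 11 endocytic genes, 3 genes of transmitter and proton loading, and 2 frequenins.

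A synaptic vesicle is acidified by a proton pump, filled with transmitter, docked at the active zone by scaffold proteins, primed, and fused when calcium binds synaptotagmin and the SNARE proteins zipper together. Its membrane is then retrieved by clathrin, dynamin and their adaptors. KCs are cholinergic and fall into γ, α/β and α′/β′ subtypes named for the lobes their axons fill, and the strength of their output synapses is a known site of plasticity in odour memory.

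The study asked how loss or blockade of the serotonin transporter dSERT changes KC transcripts. Its 3 single-cell libraries were a day 4 to 6 library of dSERT-TMKO flies and WT flies together with WT flies given citalopram (CIT) or vehicle (VEH), a day 0 library of dSERT16 flies and their matched dSERT4 controls, and a day 0 library of dSERT-TMKO and WT flies. dSERT16 and dSERT-TMKO are deletion alleles of the transporter, the first removing a non-coding exon and upstream DNA and the second transmembrane segments. In every group Mef2(P247)-gal4 drove a nuclear GFP, cells were sorted on GFP from central brains without optic lobes, and this driver takes fewer α′/β′ KCs than the other subtypes. Genotypes and drug groups were pooled within a library and cells were not assigned to flies here. Each library therefore counts as 1 sample, and genotype and drug contrasts were not made. Below, 3 values in a row are always the day 4 to 6 library, then the dSERT16/dSERT4 day 0 library, then the dSERT-TMKO/WT day 0 library.

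The libraries held 3089, 3544 and 9404 barcodes with 21831009, 13183480 and 61833329 unique molecular identifiers (UMIs), and 2996, 3299 and 8849 cells passed the filters, with medians of 7146, 3330 and 6508 UMIs. The libraries shared 1 to 11 barcodes by pairs. Clusters were named from marker genes, and the 40 genes were kept out of the variable genes, so they did not themselves shape the clusters. KCs numbered 2929, 3019 and 2179. They comprised 1499, 1878 and 1441 γ KCs, 1313, 951 and 607 α/β KCs, and 117, 190 and 131 α′/β′ KCs. Other neurons numbered 41, 113 and 361. The dSERT-TMKO/WT day 0 library stood apart, since 5983 of its cells were non-neuronal despite the GFP gate, against 162 in the dSERT16/dSERT4 library and no such cluster at day 4 to 6. In the day 4 to 6 library 20 cells of the α/β class, all in 1 cluster of 132 cells led by rn, fell in a non-neuronal cluster when predicted doublets were kept, and they carried the glial marker repo at 384 CPM against 0 CPM in the other 112 cells. Without these 20 cells every comparison between subtypes, between KCs and other neurons and by age called the same members. In the KC clusters the mean relative level of 6 KC marker genes was 0.611 to 0.959, and it was 0.0153 to 0.289 in the other clusters. Levels are given as UMIs per 1000000 UMIs of the summed cells (CPM). The counts come from 3′ tags, so levels are compared for 1 gene between cell classes and never between genes.

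Together the 40 genes took 2.91% to 3.92% of all UMIs in the KC subtypes and 3.36% to 3.81% in other neurons. In non-neuronal cells they took 0.473% in the dSERT16/dSERT4 day 0 library and 0.272% in the dSERT-TMKO/WT day 0 library. Among KC subtypes the summed share was highest in α/β KCs in each library (3.40%, 3.89% and 3.92%) and lowest in α′/β′ KCs (2.91%, 3.09% and 3.30%), with γ KCs between them (3.23%, 3.42% and 3.40%). The sum gives more weight to genes of high level, and the role groups differed. The active zone group had 1.23%, 1.28% and 1.14% in α/β against 0.753%, 0.675% and 0.735% in α′/β′ KCs. The synaptotagmins went the other way, with 0.309%, 0.317% and 0.287% in α/β against 0.362%, 0.382% and 0.358% in α′/β′ KCs.

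Subtypes were compared by edgeR's quasi-likelihood test on UMIs summed by subtype and library, with the library as a block, and a gene was called where its adjusted p reached 0.05 or less and its fold 1.5 or more. All 40 genes passed the filter on low counts. These p-values measure the spread among only 3 libraries, which differ in age and in their mix of genotypes. Of the 40 genes, 4 were higher in α/β over γ KCs (Syt12, Rab27, Rim and Frq2) and 1 was lower (Frq1), where 5.82% and 5.84% of the 6827 genes tested were higher and lower. For α′/β′ over γ KCs, 1 was higher (Syt12) and 2 were lower (Rim and Frq1), against 5.43% and 5.51% of all genes. In α′/β′ over α/β KCs, none was higher and 6 were lower (Rab27, Rim, Rbp, brp, Syx1A and Syt12), against 8.16% and 8.25% of all genes. For that comparison DESeq2 also called 0 higher and 6 lower. Without TMM scaling the split was 2 higher (ChAT and Syt4) and 5 lower (Syx1A lost). No share over all genes is given for these alternatives. In the edgeR fit 22 of the 40 genes (55%) had an unadjusted p under 0.05 in either direction, against 34.0% of all genes. That share is not matched to the 40 genes for level. The median log2 fold change of the 40 genes was 0.02, -0.06 and -0.07 in these comparisons, and 0.01, -0.02 and -0.02 over all genes tested. The order of the 3 subtypes by CPM was the same in every library for 14 of the 40 genes. The order differed for the other 26, namely Cadps, Chc, Clc, Csp, Dap160, EndoA, Eps-15, Frq1, Frq2, Liprin-alpha, Nsf2, Rab3, Rab3-GEF, Rop, Snap25, Syn, Syt1, Syt7, VAChT, Vha100-1, alphaSnap, comt, cpx, nSyb, shi and unc-13. The heat map of fitted log2 fold changes shows that most of the 40 genes lay close to 0 between subtypes.

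**Figure D1:**
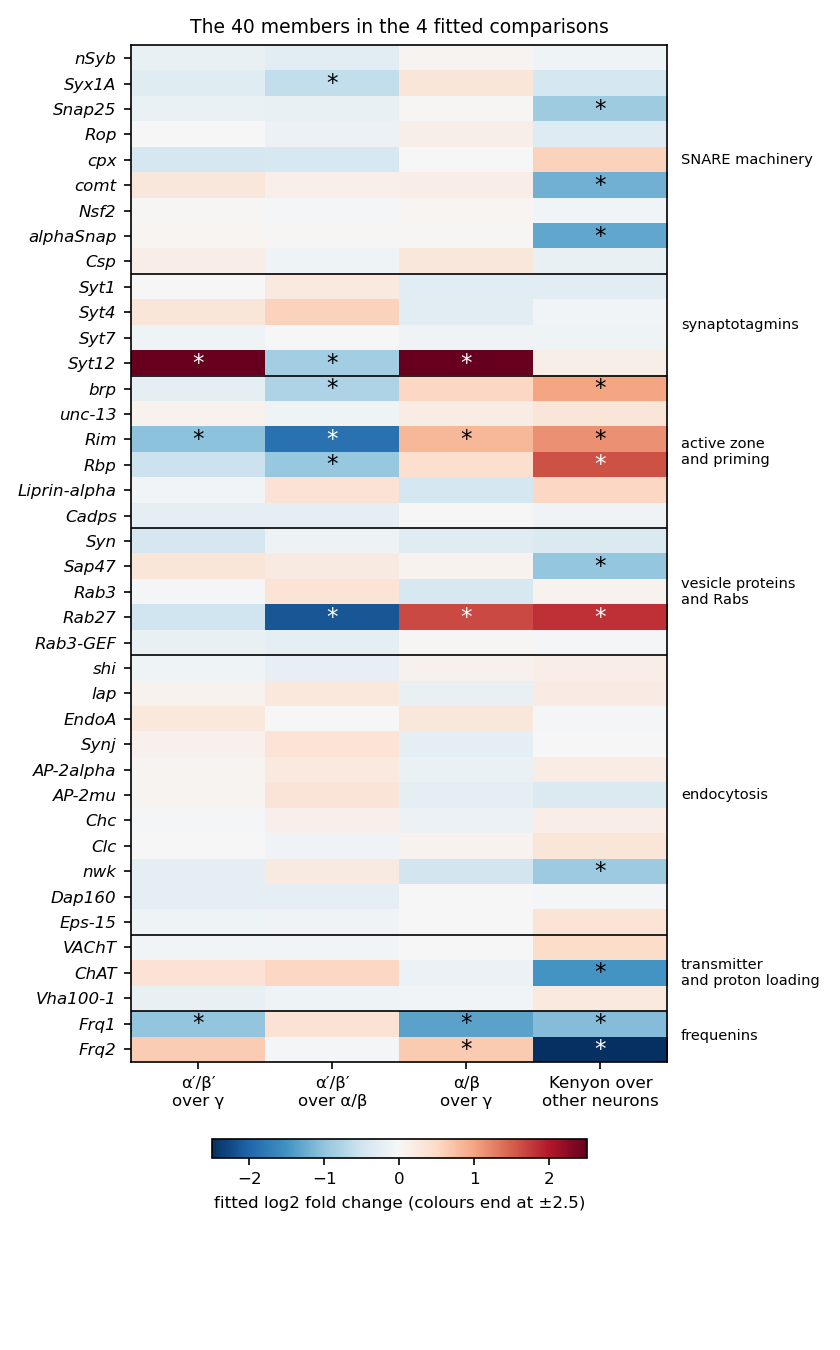
Fitted log2 fold changes (colour, ending at ±2.5) of the 40 genes, 1 row per gene grouped by role, in 4 comparisons (columns), with an asterisk on called genes. The asterisks between subtypes fall on Syt12, Rab27, Rim, Rbp, brp, Syx1A, Frq1 and Frq2, while no endocytic gene has one between subtypes.

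The active zone genes held 3 of the 6 calls between α′/β′ and α/β KCs. Rim (chr3R:17872748-17916578, minus strand, in the release 6 assembly dm6) encodes the scaffold that ties vesicles to calcium channels. It stood at 1085, 1312 and 1368 CPM in α′/β′ KCs and at 3871, 4895 and 4159 CPM in α/β KCs. In γ KCs it stood at 2598, 2653 and 2032 CPM. These sums of the 3 subtypes did not overlap, and each library gave the same order with α/β highest and α′/β′ lowest. By single clusters of all libraries, γ KCs ran from 2032 to 3657 CPM and α/β KCs from 2863 to 5261 CPM, which overlapped. The fit gave log2 fold change -1.86 ± 0.14 (SE), adjusted p = 4.29e-05 for α′/β′ over α/β, and log2 fold change -1.03 ± 0.13 (SE), adjusted p = 0.00162 for α′/β′ over γ. For α/β over γ it gave log2 fold change 0.83 ± 0.13 (SE), adjusted p = 0.00311, a call that was lost without the library block (adjusted p = 0.0624) and without the dSERT16/dSERT4 library (adjusted p = 0.08). Without that library the call for α′/β′ over γ was lost too (adjusted p = 0.0566).

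Rbp (chr3R:15374635-15402543, plus strand), whose protein binds both Rim and the calcium channel, followed the same order in every library. It stood at 921, 1053 and 1145 CPM in α′/β′ KCs, 1557, 2291 and 1895 CPM in α/β KCs and 1237, 1608 and 1435 CPM in γ KCs. The difference of α′/β′ from α/β was called (log2 fold change -0.95 ± 0.10 (SE), adjusted p = 0.000221), while those of α/β over γ (0.42 ± 0.09, adjusted p = 0.0157) and of α′/β′ over γ (-0.53 ± 0.10, adjusted p = 0.00676) fell short of the fold.

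brp (chr2R:9503765-9541565, plus strand) encodes Bruchpilot, the core scaffold of the T-bar. It had 1658, 1575 and 1465 CPM in α′/β′ KCs, 2921, 2665 and 2035 CPM in α/β KCs and 1778, 1929 and 1590.3 CPM in γ KCs. Again α/β KCs were highest in each library, and only α′/β′ over α/β was called (log2 fold change -0.77 ± 0.10 (SE), adjusted p = 0.000695), with α/β over γ at 0.52 ± 0.09 and an adjusted p of 0.00604.

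The other 3 genes of the group were not called between any subtypes. unc-13, the priming factor, had 2985, 2209 and 2565 CPM in α′/β′ KCs, 3084, 2279 and 2510.0 CPM in α/β KCs and 2557, 2143 and 2202 CPM in γ KCs, and its subtypes overlapped. Cadps, a priming factor of dense-core vesicles, ranged over 511 to 790.3 CPM in α′/β′, 607 to 825 CPM in α/β and 629 to 883 CPM in γ KCs. Liprin-alpha, an adaptor that helps to assemble active zones, went the other way from Rim, with 69.2, 67.1 and 66.1 CPM in α/β KCs against 91.3, 91.4 and 92.3 CPM in γ KCs, and these did not overlap. Its fitted log2 fold change was -0.44 ± 0.07 (SE) with an adjusted p of 0.0038, short of the fold. The active zone group therefore did not move as 1 block, since 1 of its 6 genes was called in α/β over γ, 1 in α′/β′ over γ and 3 in α′/β′ over α/β.

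Rab27 (chrX:1473884-1476974, minus strand), a small GTPase of regulated exocytosis, had the largest log2 fold change of the 40 genes between α′/β′ and α/β KCs. It stood at 159, 281 and 203 CPM in α′/β′ KCs, 631, 1099.8 and 941 CPM in α/β KCs and 187, 439.6 and 261 CPM in γ KCs. The lowest α/β value was above the highest value of either other subtype. The fit gave log2 fold change 1.64 ± 0.10 (SE), adjusted p = 1.72e-05 for α/β over γ, and log2 fold change -2.15 ± 0.11 (SE), adjusted p = 6.97e-06 for α′/β′ over α/β. Without the library block the α/β over γ call stood just past the limit (adjusted p = 0.050006). The level also differed by library, being lowest at day 4 to 6 in every subtype.

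The other vesicle proteins were not called between subtypes. Rab3, the vesicle GTPase, had 472, 507 and 623 CPM in α′/β′, 364, 398 and 420.5 CPM in α/β and 453, 543 and 577 CPM in γ KCs, and was thus lower in α/β than in γ KCs in all 3 libraries (-0.40 ± 0.08, adjusted p = 0.00856). Its exchange factor Rab3-GEF had 271 to 358 CPM in α′/β′, 297 to 395 CPM in α/β and 274 to 394 CPM in γ KCs, with subtypes close together in each library. Syn, the synapsin that tethers the reserve pool, had 357, 490.4 and 419.9 CPM in α/β KCs against 399, 659.5 and 528 CPM in γ KCs (-0.30 ± 0.08, adjusted p = 0.0302). Sap47, a synapse-associated protein, had 1994, 2417 and 2507 CPM in α′/β′ KCs against 1557, 1680.2 and 2047 CPM in γ KCs (0.31 ± 0.08, adjusted p = 0.031).

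Syt12 (chrX:13359248-13368179, plus strand), a synaptotagmin, separated γ KCs from both other subtypes more than any other of the 40 genes did. It had 119, 78.2 and 74.1 CPM in α′/β′ KCs and 170.0, 126 and 161 CPM in α/β KCs. In γ KCs it had 14.6, 8.87 and 9.38 CPM, from 59 to 173 UMIs per library. No γ value came near those of the other subtypes, and α/β exceeded α′/β′ in each library. The fit gave log2 fold change 3.81 ± 0.13 (SE), adjusted p = 8.03e-07 for α/β over γ, and log2 fold change 2.95 ± 0.15 (SE), adjusted p = 1.75e-05 for α′/β′ over γ. For α′/β′ over α/β it gave log2 fold change -0.86 ± 0.13 (SE), adjusted p = 0.00187.

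Of the other synaptotagmins, Syt1, the fast calcium sensor, had 1864, 1922 and 1983 CPM in α′/β′, 1547, 1562 and 1466 CPM in α/β and 1898, 1898 and 1700.4 CPM in γ KCs. It was lower in α/β than in γ KCs in all 3 libraries, by a log2 fold change of -0.26 ± 0.08 that did not pass the test (adjusted p = 0.0613). Syt4, known in the fly for retrograde signalling at the neuromuscular junction, had 670.3, 703 and 615 CPM in α′/β′ KCs against 394, 447 and 409 CPM in α/β KCs, without overlap, and fell just short of the fold (log2 fold change 0.58 ± 0.07 (SE), adjusted p = 0.000749). Syt7 ranged over 912 to 1121 CPM in α′/β′, 837 to 1032 CPM in α/β and 851 to 1214 CPM in γ KCs, a spread between libraries that covered the subtypes.

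The frequenins are neuronal calcium sensors that modulate release. Frq1 (chrX:18155369-18174744, plus strand) had 266, 158 and 243 CPM in α′/β′ KCs and 218, 174 and 111 CPM in α/β KCs, both under the 579, 393 and 310.2 CPM of γ KCs in every library. The fit gave log2 fold change -1.34 ± 0.20 (SE), adjusted p = 0.00225 for α/β over γ, and log2 fold change -0.98 ± 0.21 (SE), adjusted p = 0.0154 for α′/β′ over γ. The second call was lost without the dSERT16/dSERT4 library (adjusted p = 0.127) and without the block (adjusted p = 0.111).

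Frq2 (chrX:18177612-18204407, plus strand) lies beside Frq1 and had 37.8, 38.5 and 38.4 CPM in α′/β′, 53.5, 36.5 and 25.1 CPM in α/β and 32.1, 25.6 and 15.7 CPM in γ KCs, from 32 to 42, 85 to 432 and 166 to 381 UMIs per library. Its α/β over γ call was marginal (log2 fold change 0.66 ± 0.18 (SE), adjusted p = 0.041) and was lost in 8 of 16 alternatives. Frq1 and Frq2 encode near-identical proteins, so reads may have been split or dropped between them and their counts are uncertain. Both varied more than any other of the 40 genes among the 6 α/β clusters, where the clusters led by rn were the highest of their library. There Frq1 reached 624 and 234 CPM in the day 4 to 6 and dSERT16/dSERT4 libraries, against 110.4 and 214 CPM in the other α/β clusters at day 4 to 6 and 118 CPM in that of the dSERT16/dSERT4 library. Frq2 reached 168 and 53.4 CPM in the rn-led clusters, against 28.1 and 47.7 CPM in the other α/β clusters at day 4 to 6 and 20.6 CPM in the dSERT16/dSERT4 library. The rn-led cluster at day 4 to 6 was the one that held the 20 non-neuronal cells, whose genes, such as Obp44a and Gs2, were 9 of its 10 leading genes by fold. Without them Frq1 stood at 685 CPM and Frq2 at 185 CPM in its other 112 cells, and the 20 cells themselves had 4 Frq1 UMIs and 0 Frq2 UMIs of 91061. Without the rn-led clusters Frq1 kept its call in α/β over γ, and the adjusted p of Frq2 became 0.441.

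**Figure D2:**
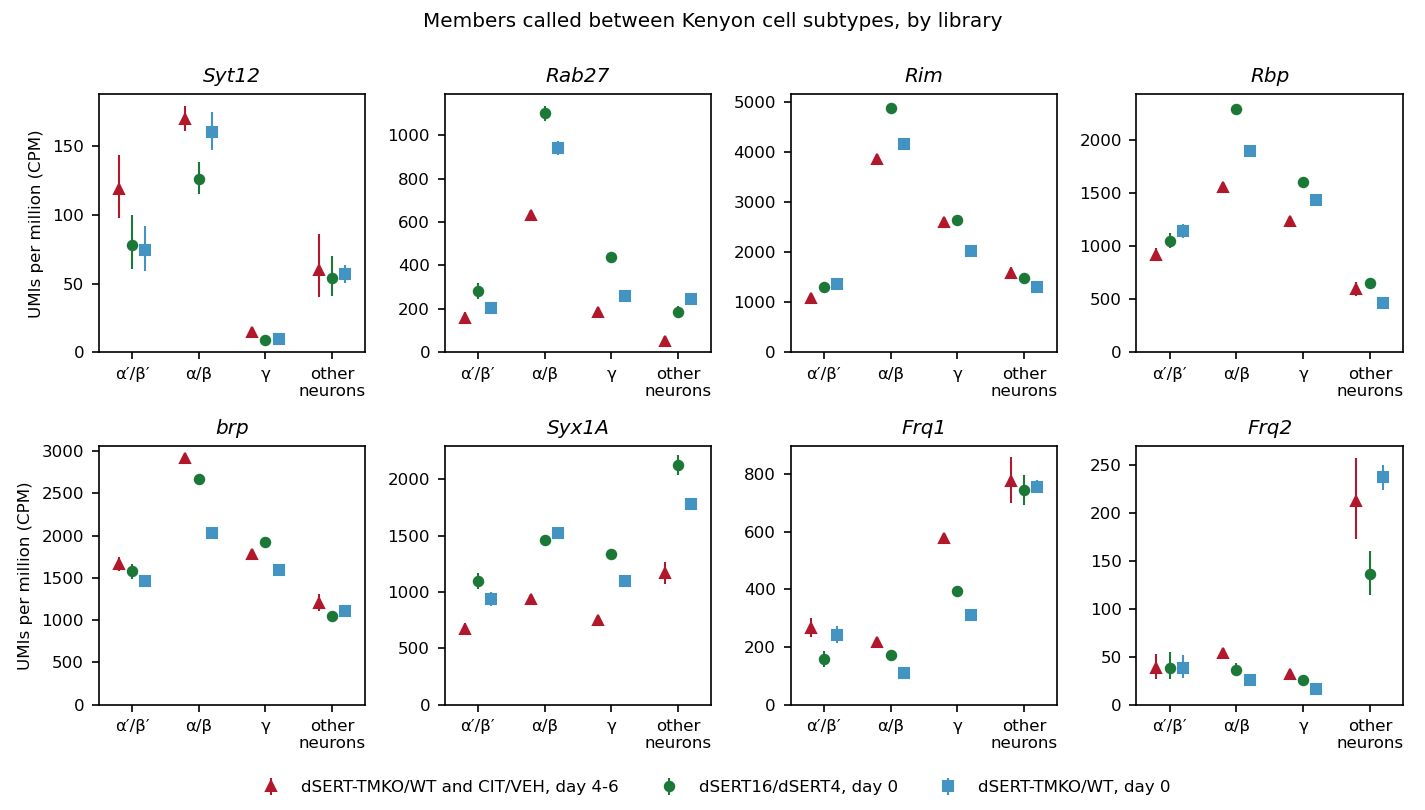
CPM (vertical axes, linear from 0) of the 8 genes called between KC subtypes, by cell class (horizontal axes) and library (colour and marker), with bars for the exact 95% Poisson interval of the count. Rim, Rbp, brp and Rab27 peak in α/β KCs, Syt12 lies at 8.87 to 14.6 CPM in γ KCs, and Frq1 and Frq2 are highest in other neurons.

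Among the SNARE genes only Syx1A was called between subtypes. Syx1A (chr3R:24101600-24105763, minus strand), the plasma membrane syntaxin, had 671, 1095 and 935 CPM in α′/β′ KCs against 938, 1461 and 1522 CPM in α/β KCs (log2 fold change -0.62 ± 0.08 (SE), adjusted p = 0.000983). The α′/β′ value was below the α/β value in each library, but the ranges overlapped across libraries and the call was kept in 11 of 16 alternatives. It was lost without the library block (adjusted p = 0.352), under a stricter threshold, and, by falling short of the fold, without TMM scaling, with thinned cells and without the dSERT-TMKO/WT day 0 library. On the same strand the span of Syx1A overlaps eIF4EHP, a translation factor gene, and how reads of the shared stretch were assigned is not given in the sources used here.

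The vesicle SNARE nSyb had 1956, 1789 and 2108 CPM in α′/β′, 2334, 1801 and 2557 CPM in α/β and 2231, 1777 and 2332 CPM in γ KCs, and was not called. The plasma membrane SNARE Snap25 had 1359, 1227 and 1149 CPM in α′/β′, 1493, 1246 and 1290.0 CPM in α/β and 1454, 1306 and 1189 CPM in γ KCs. It too was not called. Complexin, the fusion clamp encoded by cpx, had 4550.4, 5331 and 7084 CPM in α′/β′ KCs, 4959.9, 7778 and 8562 CPM in α/β KCs and 6352, 6659.9 and 8084 CPM in γ KCs. In each library α′/β′ was lowest, with adjusted p of 0.0479 against γ and 0.0433 against α/β, both short of the fold. Rop, the Munc18 homologue, the NSF ATPases comt and Nsf2, their adaptor alphaSnap and the chaperone Csp had log2 fold changes between -0.14 and 0.29 in the comparisons of α′/β′ KCs, and none was called. comt and Nsf2 are close paralogs, so their counts could be split.

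No endocytic gene was called between subtypes by edgeR or by DESeq2, although 5 of the 11 had an unadjusted p under 0.05 in α/β over γ KCs, 1 in α′/β′ over γ and 5 in α′/β′ over α/β. Over all genes tested those shares were 29.9%, 30.6% and 34.0%. The largest difference of the group was that of nwk, an F-BAR protein, with 121, 150.2 and 129.6 CPM in α/β KCs against 191, 175 and 185 CPM in γ KCs, without overlap (-0.46 ± 0.11, adjusted p = 0.0189). shi, the fly dynamin, had 1564, 1687 and 1577 CPM in α′/β′, 1524, 1830.2 and 1932 CPM in α/β and 1511, 1706 and 1703 CPM in γ KCs. The clathrin chains Chc and Clc, the adaptor subunits AP-2alpha and AP-2mu, the AP180 homologue lap, EndoA (endophilin), Synj (synaptojanin), Dap160 (intersectin) and Eps-15 showed log2 fold changes between -0.24 and 0.28 in α/β over γ KCs. In α′/β′ over α/β KCs the median log2 fold change of the 11 endocytic genes was 0.13, against -0.50 for the 6 active zone genes and -0.02 for all genes tested.

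The cholinergic genes were alike in the subtypes for the transporter and less so for the enzyme. VAChT, the vesicular acetylcholine transporter, had 664, 944 and 1002 CPM in α′/β′, 653, 932 and 994 CPM in α/β and 668, 925 and 974 CPM in γ KCs, so the subtypes of a library lay close together while the libraries differed. ChAT, which makes acetylcholine, had 160.0, 238 and 245 CPM in α′/β′ KCs against 103.99, 164 and 158 CPM in α/β KCs (0.52 ± 0.09, adjusted p = 0.00318), short of the fold. VAChT and ChAT share their start and strand in the annotation (chr3R:18705501-18732344, plus strand for ChAT), so their counts can depend on how shared reads were assigned. Vha100-1, the neuronal proton pump subunit, had 228 to 329 CPM in α′/β′, 253 to 327 CPM in α/β and 246 to 356 CPM in γ KCs.

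A further list of 33 release and vesicle genes gives the rest of the pathway. Of its 29 genes tested, 1 was higher and 1 lower in α/β over γ KCs, against 5.82% and 5.84% of all genes. In α′/β′ over γ 3 were lower, against 5.51%. In α′/β′ over α/β 1 was higher and 5 lower, against 8.16% and 8.25%. Sytalpha, a synaptotagmin, had 22.7, 33.7 and 73.2 CPM in α′/β′ KCs, 495, 485 and 578 CPM in α/β KCs and 541, 491 and 448 CPM in γ KCs. It was thus low in α′/β′ KCs in each library (-3.59 ± 0.30 over γ, adjusted p = 0.000188). Sytbeta had 7.57, 15.6 and 36.6 CPM in α′/β′ KCs against 193, 245 and 153 CPM in γ KCs (-3.28 ± 0.37, adjusted p = 0.000821). CASK, a synaptic scaffold kinase, had 277, 311 and 267 CPM in α′/β′ KCs against 756, 889.7 and 693 CPM in α/β KCs (-1.53 ± 0.08, adjusted p = 8.49e-06). Syt12, Sytalpha and Sytbeta thus marked different subtypes, with Syt12 low in γ KCs and Sytalpha and Sytbeta low in α′/β′ KCs. spri, of the same list as Sytalpha, was low in α/β KCs instead. Its log2 fold change was -3.53 ± 0.27 in α/β over γ (adjusted p = 5.47e-05) and 3.40 ± 0.30 in α′/β′ over α/β (adjusted p = 0.000104).

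KCs were then set against the other neurons of the same sort, whose clusters were led by genes such as VGlut, Gad1, Ms, Dh31 and Lim1. Of the 40 genes, 4 were higher in KCs (Rab27, Rbp, Rim and brp) and 8 were lower (Frq2, ChAT, alphaSnap, comt, Frq1, Sap47, nwk and Snap25), where 12.3% and 14.5% of the 7390 genes tested were higher and lower. The median log2 fold change of the 40 genes was -0.05, against -0.01 over all genes. The 4 higher genes were all among those that peaked in α/β KCs, and 3 of them belong to the active zone group.

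Rbp had 1347, 1795 and 1518 CPM in KCs against 593, 650.0 and 467 CPM in other neurons (log2 fold change 1.60 ± 0.17 (SE), adjusted p = 0.000612). Rim had 3023, 3303 and 2463 CPM in KCs against 1588, 1491 and 1298 CPM in other neurons (log2 fold change 1.15 ± 0.17 (SE), adjusted p = 0.00242), and brp 2215, 2149 and 1681 CPM against 1205, 1047 and 1111 CPM (log2 fold change 0.98 ± 0.17 (SE), adjusted p = 0.00526). None of these groups overlapped. The KC sums are mostly γ and α/β cells, and α′/β′ KCs taken alone had Rim at 1085 to 1368 CPM, within or below the 1298 to 1588 CPM of other neurons. Rab27 had 358, 649 and 410.0 CPM in KCs against 51.5, 184 and 244 CPM in other neurons (log2 fold change 1.82 ± 0.34 (SE), adjusted p = 0.00691). Taken alone in the dSERT-TMKO/WT library, γ KCs were near the other neurons at 261 CPM and α′/β′ KCs below them at 203 CPM. In the day 4 to 6 and dSERT16/dSERT4 libraries both subtypes were above the other neurons, at 187 and 440 CPM in γ and 159 and 281 CPM in α′/β′ KCs. The day 4 to 6 value of the other neurons rests on 25 UMIs.

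The lower genes spanned several roles. Frq2 had 40.6, 30.2 and 19.5 CPM in KCs against 212, 136 and 237 CPM in other neurons (log2 fold change -2.60 ± 0.29 (SE), adjusted p = 0.0007). Frq1 had 426, 302 and 260.5 CPM against 776, 744 and 756 CPM (log2 fold change -1.09 ± 0.17 (SE), adjusted p = 0.00357), so both frequenins were lower in KCs, though Frq1 lost its call without the other-neuron cluster that also held KC markers (adjusted p = 0.0532). comt had 149, 165 and 159.7 CPM in KCs against 352, 491 and 382 CPM in other neurons (log2 fold change -1.21 ± 0.15 (SE), adjusted p = 0.00104), and its adaptor alphaSnap 248, 274 and 312 CPM against 663, 764 and 838 CPM (log2 fold change -1.30 ± 0.14 (SE), adjusted p = 0.000665). The other NSF gene, Nsf2, was not called, at 29.6, 22.2 and 25.5 CPM in KCs against 28.8, 23.2 and 34.7 CPM in other neurons (-0.06 ± 0.20).

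Snap25 had 1465, 1280.2 and 1209 CPM in KCs against 2514, 2585 and 3001 CPM in other neurons (log2 fold change -0.89 ± 0.18 (SE), adjusted p = 0.0089). Sap47 had 1609, 1780.5 and 2094 CPM in KCs against 3161, 3984 and 4896 CPM in other neurons (log2 fold change -0.98 ± 0.17 (SE), adjusted p = 0.00483), a call kept in 13 of 16 alternatives and lost without the dSERT16/dSERT4 library (adjusted p = 0.0528), with the 40 genes kept in the clustering (adjusted p = 0.0579) and under a stricter threshold. nwk had 163, 166 and 170.3 CPM in KCs against 342, 372 and 327 CPM in other neurons (log2 fold change -0.91 ± 0.14 (SE), adjusted p = 0.00316). ChAT had 114, 189 and 166 CPM in KCs against 447, 763 and 314 CPM in other neurons (log2 fold change -1.49 ± 0.24 (SE), adjusted p = 0.00351), while VAChT from the same locus had 662, 929 and 980.3 CPM against 829.8, 752 and 510.3 CPM and was not called (0.46 ± 0.25, adjusted p = 0.206). The other neurons were a mixture in which ChAT was high in the clusters led by twz, with 652 and 1379 CPM in the day 4 to 6 and dSERT16/dSERT4 libraries, against 262 and 327 CPM in the other cluster of each.

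**Figure D3:**
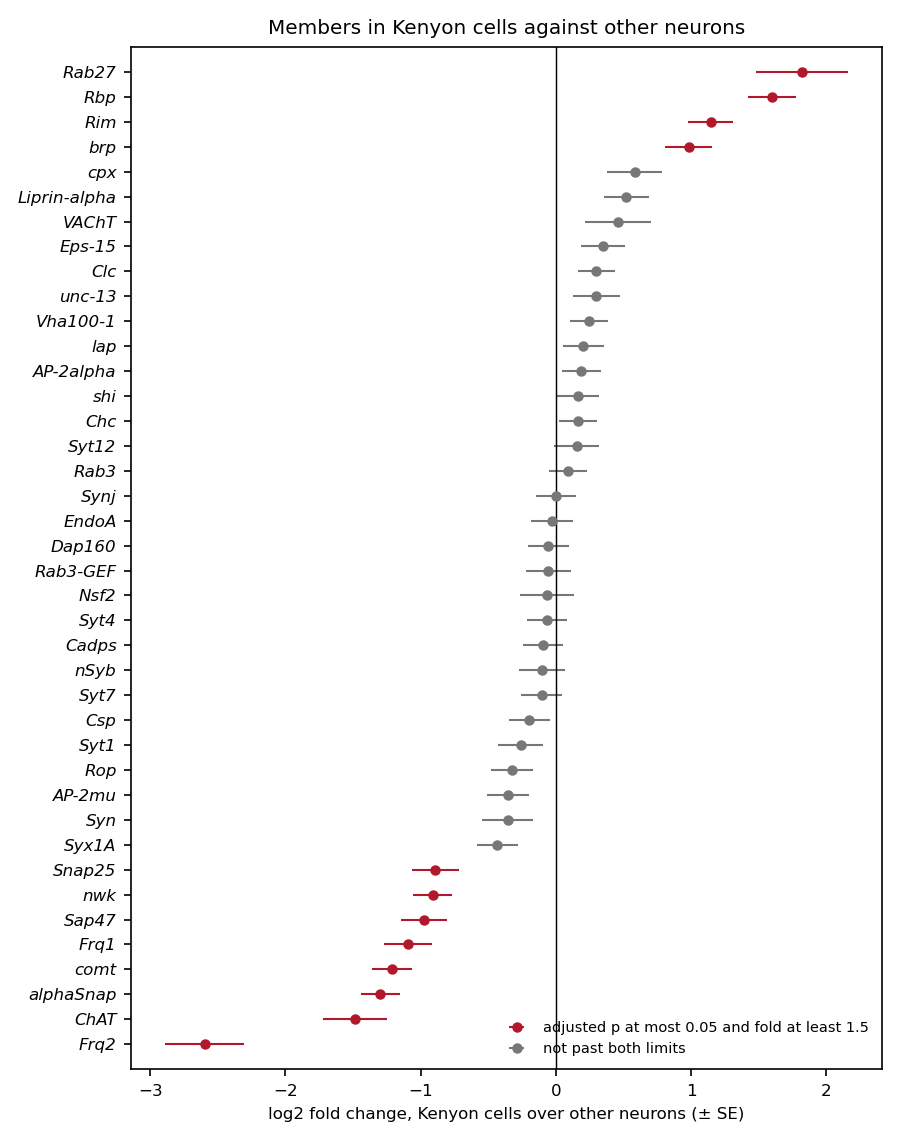
Log2 fold change of KCs over other neurons (horizontal axis, bars ± SE) for the 40 genes in order of size, in red for called genes. Rab27, Rbp, Rim and brp stand apart at the high end and 8 genes from Snap25 down to Frq2 at the low end.

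Of the 30 other release and vesicle genes tested, 7 were higher in KCs (Snap24, Snap29, Syt14, Sytalpha, Tomosyn, Unc-76 and dysc) and 4 were lower (Rph, Syx6, VGlut and Vmat). Sytalpha was at 500.2, 455 and 450.1 CPM in KCs against 148, 158 and 81.8 CPM in other neurons (2.07 ± 0.21, adjusted p = 0.000432). VGlut, the vesicular glutamate transporter, was at 0.144, 0.623 and 0.466 CPM in KCs against 140.0, 298 and 513 CPM in other neurons. Of the 14 proton pump subunits tested besides Vha100-1, 1 was higher in KCs (VhaM9.7-b) and 4 were lower (Vha26, Vha68-1, VhaAC45 and VhaSFD). Beside the counts of both lists, 12.3% of all genes tested were higher and 14.5% lower.

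The remaining 28 of the 40 genes were not called between KCs and other neurons. nSyb had 2258, 1786 and 2366 CPM in KCs against 2284, 2395 and 2909 CPM in other neurons (-0.10 ± 0.17), and Syt1 1760.5, 1788 and 1668 CPM against 2304, 2105 and 2517 CPM (-0.26 ± 0.17). cpx had 5734, 6935 and 8119 CPM in KCs against 4308, 6433 and 4684 CPM in other neurons, higher in all 3 libraries, but did not pass the test (0.58 ± 0.20, adjusted p = 0.0686). Liprin-alpha passed the adjusted p (0.0499) and missed the fold. Syt12, so unequal between subtypes, had 79.3, 53.2 and 48.2 CPM in KCs against 59.7, 54.1 and 56.8 CPM in other neurons (0.15 ± 0.17).

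In the day 0 libraries KCs could also be set against non-neuronal cells, with no test, since only these 2 libraries held them. Of the 40 genes, 34 were at least 2-fold higher in KCs in both libraries, where 33.7% of the 5363 genes compared were. The 6 that were not past that fold were Syx1A, Nsf2, Liprin-alpha, AP-2alpha, Chc and Clc, of which Liprin-alpha missed it in the dSERT16/dSERT4 library alone (folds of 1.10 and 2.93). They include 3 of the 11 endocytic genes, among these both clathrin chains. In the dSERT16/dSERT4 and dSERT-TMKO/WT libraries, in that order, brp had 2149 and 1681 CPM in KCs, against 73.7 and 4.28 CPM in non-neuronal cells, folds of 29.2 and 393. Syt1 had 1788 and 1668 CPM in KCs, against 78.1 and 5.85 CPM in non-neuronal cells, folds of 22.9 and 285. Such neuron-restricted genes were thus at higher CPM in the non-neuronal cells of the dSERT16/dSERT4 library, which had 162 such cells beside 3019 KCs. Their highest non-neuronal values, 148 CPM for brp and 145 CPM for Syt1, were in its cluster of 74 cells led by CG1124. With the 40 genes kept in the clustering, that library had 88 non-neuronal cells, and other neurons rose from 113 to 163. The part of RNA from neurons in those values was not tested.

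Syx1A was the exception among the SNARE genes, with 1362 and 1183 CPM in KCs, against 1231 and 913 CPM in non-neuronal cells, folds of 1.11 and 1.29. Among the 9 non-neuronal clusters of the dSERT-TMKO/WT library Syx1A ran from 91.2 to 1261 CPM, the highest being that led by wun2 and e. The highest of all 12 non-neuronal clusters was in the dSERT16/dSERT4 library, at 3136 CPM in a cluster of only 16 cells led by alrm and Gat. The overlapping eIF4EHP had 596 and 577 CPM in KCs, against 255 and 283 CPM in non-neuronal cells. Clc had 130.3 and 160.2 CPM in KCs, against 78.1 and 131 CPM in non-neuronal cells, and Chc 159 and 137 CPM in KCs, against 103 and 117 CPM in non-neuronal cells. Nsf2 was the only 1 of the 40 genes lower in KCs in both, with 22.2 and 25.5 CPM in KCs, against 35.4 and 32.6 CPM in non-neuronal cells. Syt12 had only 2 UMIs in the non-neuronal cells of the dSERT16/dSERT4 library, so its fold there is not firm.

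**Figure D4:**
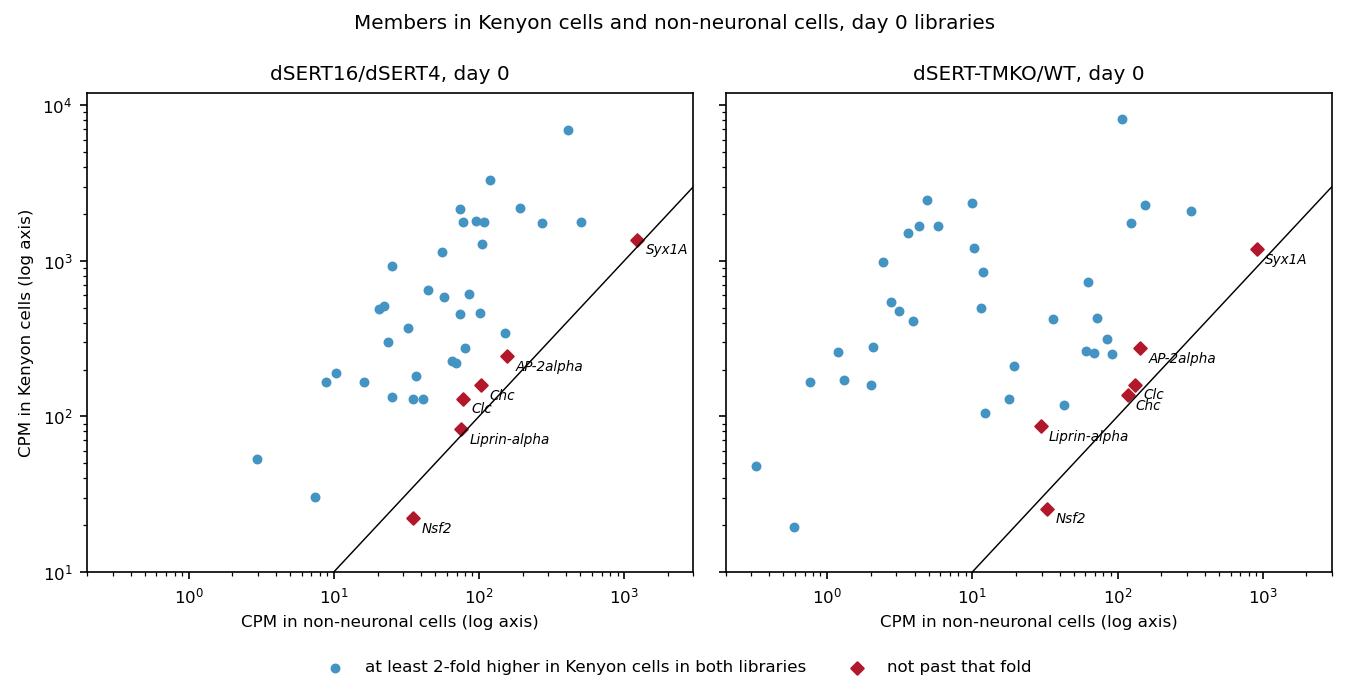
CPM of the 40 genes in KCs (vertical, log axis) and in non-neuronal cells (horizontal, log axis) of the 2 day 0 libraries, with the line of equality. The 6 genes not past the 2-fold limit in both libraries (red diamonds, named) include Liprin-alpha, which is 2.93-fold higher in KCs in the dSERT-TMKO/WT library, and Nsf2 lies below it in both libraries.

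Age was compared last, by setting the day 4 to 6 library against each day 0 library within a subtype. With 1 library at day 4 to 6 there is no test, and age cannot be told apart from the library, its genotypes and the drug treatment of some flies. In α/β KCs, 0 of the 40 genes were at least 1.5-fold higher than in both day 0 libraries and 3 were at least 1.5-fold lower (cpx, Syx1A and ChAT), where 6.78% and 2.64% of the 5533 genes compared were. In γ KCs 1 was higher (Syt12) and 0 lower, against 2.85% and 3.38% of 5438 genes. In α′/β′ KCs 1 was higher (Syt12) and 0 lower, against 8.33% and 6.52% of 5703 genes. With TMM scaling in place of library totals the counts were 0 higher and 1 lower (Syx1A) in γ KCs, 0 and 5 in α/β KCs, and 0 and 2 (ChAT and VAChT) in α′/β′ KCs. The shares of all genes above are for library totals. None is given here for TMM scaling, so these counts cannot be set against a background. As a yardstick, the 2 day 0 libraries differed from each other by that fold for 2 of the 40 genes in γ, 1 in α/β and 1 in α′/β′ KCs, and for 25.9%, 25.1% and 35.2% of all genes. All genes here means every gene of at least 10 CPM in at least 1 of the 3 libraries. These shares are not matched to the 40 genes for level, and folds of genes with few UMIs vary more by counting alone.

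cpx in α/β KCs had 4959.9 CPM in the day 4 to 6 library, against 7778 and 8562 CPM in the dSERT16/dSERT4 and dSERT-TMKO/WT day 0 libraries. Its folds were 0.638 (95% counting interval 0.628 to 0.647) and 0.579 (95% counting interval 0.571 to 0.588). In γ KCs the folds were 0.954 and 0.786, nearer to 1, and in α′/β′ KCs they were 0.854 and 0.642. Syx1A had 938 CPM in the day 4 to 6 library, against 1461 and 1522 CPM in the dSERT16/dSERT4 and dSERT-TMKO/WT day 0 libraries in α/β KCs, folds of 0.642 (95% counting interval 0.620 to 0.665) and 0.617 (95% counting interval 0.595 to 0.639). In γ KCs the folds of Syx1A were 0.560 and 0.682 and in α′/β′ KCs 0.613 and 0.718, so it was lower at day 4 to 6 in every subtype and against both day 0 libraries.

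ChAT had 103.99 CPM in the day 4 to 6 library, against 164 and 158 CPM in the dSERT16/dSERT4 and dSERT-TMKO/WT day 0 libraries in α/β KCs, folds of 0.633 (95% counting interval 0.570 to 0.703) and 0.660 (95% counting interval 0.591 to 0.737). The other subtypes were near these, with ChAT folds of 0.590 and 0.729 in γ and 0.672 and 0.652 in α′/β′ KCs. VAChT, which came close to the limit, had folds of 0.701 and 0.657 in α/β, 0.722 and 0.686 in γ and 0.703 and 0.662 in α′/β′ KCs. Rab27 had folds of 0.574 and 0.671 in α/β, 0.426 and 0.718 in γ and 0.565 and 0.782 in α′/β′ KCs. These were lower against both day 0 libraries, but the day 0 libraries also differed from each other for Rab27, with 261 CPM in the dSERT-TMKO/WT library against 439.6 CPM in the dSERT16/dSERT4 library in γ KCs.

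Syt12 was higher at day 4 to 6 at the low level of γ KCs, with 14.6 CPM in the day 4 to 6 library, against 8.87 and 9.38 CPM in the dSERT16/dSERT4 and dSERT-TMKO/WT day 0 libraries, folds of 1.64 (95% counting interval 1.22 to 2.25) and 1.55 (95% counting interval 1.21 to 2.01), and did not pass the fold with TMM scaling, with cells thinned to 1000 UMIs or without the clusters led by mitochondrial genes. In α′/β′ KCs Syt12 had 119 CPM in the day 4 to 6 library, against 78.2 and 74.1 CPM in the dSERT16/dSERT4 and dSERT-TMKO/WT day 0 libraries. Frq1 was above both day 0 libraries in every subtype, with folds of 1.48 and 1.87 in γ, 1.26 and 1.96 in α/β and 1.69 and 1.10 in α′/β′ KCs, and passed the limit against 1 day 0 library only in each. The α/β folds mix unlike clusters. At day 4 to 6 the α/β clusters ran from 110.4 CPM to the 624 CPM of the rn-led cluster, against 174 and 111 CPM in all α/β cells at day 0. The rn-led clusters held 132 of 1313 α/β cells at day 4 to 6 and 432 of 951 in the dSERT16/dSERT4 library.

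**Figure D5:**
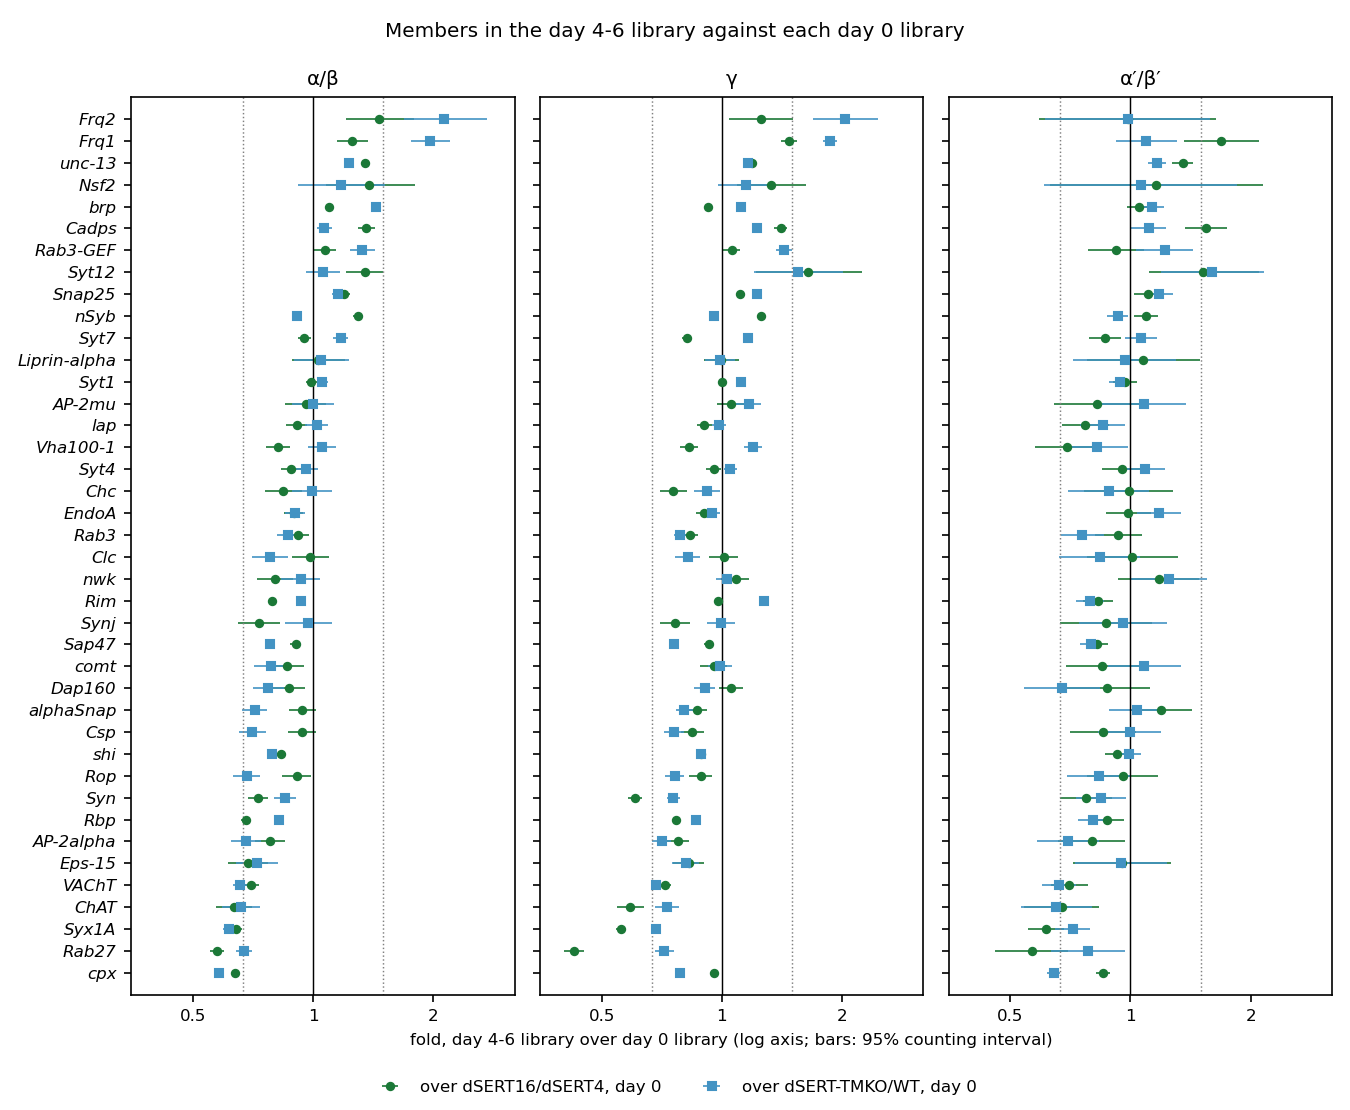
Fold of the day 4 to 6 library over each day 0 library (horizontal, log axis, bars for the exact 95% counting interval) for the 40 genes in α/β, γ and α′/β′ KCs, in the order of α/β KCs, with dotted lines at the 1.5-fold limits. cpx, Syx1A and ChAT lie past the lower line against both day 0 libraries in α/β KCs, and more of the 40 genes lie left of 1 than right of it.

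Smaller shifts leaned one way. In γ KCs 21 of the 40 genes were below both day 0 libraries and 10 above both, against 24.2% and 35.3% of the 5424 genes with UMIs in all 3 libraries. In α/β KCs 25 were below and 10 above, against 24.1% and 40.4% of all genes, and in α′/β′ KCs 22 were below and 9 above, against 23.8% and 42.8%. The median log2 fold of the 40 genes over the dSERT16/dSERT4 library was -0.11 in γ, -0.14 in α/β and -0.11 in α′/β′ KCs, against 0.08, 0.17 and 0.16 for all genes. Over the dSERT-TMKO/WT library it was -0.04, -0.12 and -0.07, against 0.03, 0.02 and 0.10 for all genes. Those above both in γ and α/β KCs included the scaffold and priming genes unc-13 and Cadps and the SNARE Snap25, with folds of 1.19 and 1.16 for unc-13, 1.40 and 1.23 for Cadps and 1.11 and 1.22 for Snap25 in γ KCs.

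The proton pump subunits, a list of 16 genes beside Vha100-1 of which 14 were above the minimum level, were mostly below both day 0 libraries at day 4 to 6. This held for 12 of 14 in γ, 12 of 14 in α/β and 11 of 14 in α′/β′ KCs, against 24.2%, 24.1% and 23.8% of all genes. Those above both were 0, 1 and 1, against 35.3%, 40.4% and 42.8%. In α/β KCs 4 were at least 1.5-fold lower than both and 1 at least 1.5-fold higher, where 140 and 371 of 5521 genes were. The median log2 fold of the 14 subunits was -0.41 and -0.24 in γ KCs and -0.49 and -0.40 in α/β KCs over the dSERT16/dSERT4 and dSERT-TMKO/WT libraries. Vha14-1 had 356 CPM in α/β KCs at day 4 to 6, against 682 and 753 CPM at day 0, and Vha16-1 2211 CPM against 3452 and 3488 CPM. Vha100-1 itself was below both day 0 libraries in α′/β′ KCs (folds of 0.692 and 0.823) but not in α/β (0.816 and 1.05) or γ KCs (0.828 and 1.20). Of the 27 other release and vesicle genes above the minimum, 6 were below and 5 above both day 0 libraries in γ KCs, 9 and 6 in α/β KCs, and 8 and 8 in α′/β′ KCs. The shares of all genes below and above were 24.2% and 35.3%, 24.1% and 40.4%, and 23.8% and 42.8%.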

How the data were processed

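Single-cell RNA from GFP-sorted central brain cells was measured in 3 libraries. The deposited counts are UMI counts per gene and barcode that the authors made with Cell Ranger 7.0.0 on the fly assembly dm6, with Seurat named for their later steps. The 4 deposited tables of the authors' comparisons per cell type hold only their own fold changes and p-values and were not used. Genotype and drug contrasts were therefore not analysed here.

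Barcodes under 1000 UMIs or over 20% mitochondrial UMIs were dropped, and Scrublet-predicted doublets (5, 326 and 26 in the dSERT16/dSERT4 day 0, dSERT-TMKO/WT day 0 and day 4 to 6 libraries) were removed. Each library was clustered alone with scanpy 1.11.5 and leidenalg 0.10.2 (2000 variable genes without the 40, 10 components, 20 neighbours, resolution 0.3, seed 0). Clusters were named from listed markers by a score rule set after the clusters were seen. UMIs were summed by class and library, and edgeR 4.0.16 (R 4.3.3) fitted all genes past its filter, with TMM scaling, the library as a block and Benjamini-Hochberg adjustment. DESeq2 1.42.0 was an alternative. The fit was tested on simulated data. Intervals of counts are exact Poisson intervals and cover counting error only.

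The 40 genes and the lists were chosen with earlier results of these data known. Genes past the threshold in a tested comparison were named, at most 10 by adjusted p, with every member of a role group described by counts. The remaining genes called between KCs and other neurons (Rab27 and Snap25) and some examples were added after their values were seen. Positions are those of the release 6 annotation. No sequences were used here.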

Additional observations from a re-analysis of the deposited data

Results flagged for a closer look

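In cpx, the α/β over γ fold was 0.781 at day 4 to 6, while it was 1.17 in the dSERT16/dSERT4 day 0 library and 1.06 in the dSERT-TMKO/WT day 0 library. It was picked out because the direction at day 4 to 6 was opposite to that in both day 0 libraries, and the difference was not tested.

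In VAChT, the KC over other neuron fold was 0.797 at day 4 to 6, while it was 1.23 in the dSERT16/dSERT4 day 0 library and 1.92 in the dSERT-TMKO/WT day 0 library. The direction was again opposite at day 4 to 6, where the other neurons were 41 cells, and the difference was not tested.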

How the results depend on the processing

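No tested comparison reversed under any alternative that was run. For age, TMM factors changed the direction of the calls in γ and α′/β′ KCs. There Syt12, higher with library totals, was no longer called. The genes called instead were lower at day 4 to 6, namely Syx1A in γ KCs and ChAT and VAChT in α′/β′ KCs. For α/β over γ KCs the 5 called genes became 2 without the library block (Frq1 and Syt12). They became 3 under stricter limits (adjusted p up to 0.01 and a fold of 2 or more). With no minimum fold they became 13, where 1277 of the 6827 genes tested were called. Leaving out 1 library gave 4 to 6, of which 3 to 5 were among those called with all libraries. In α′/β′ over γ the 3 became 11 with no minimum fold, where 1217 of the 6827 genes tested were called. Leaving out 1 library gave 1 to 4, of which 1 to 3 were among those 3, with Syt12 alone called without the dSERT16/dSERT4 library. In α′/β′ over α/β the 6 became 2 under those stricter limits. With no minimum fold they became 13, where 1633 of the 6827 genes tested were called. Leaving out 1 library gave 6 each time, of which 5 to 6 were among the 6 called with all libraries. KCs over other neurons gave 10 to 13 genes with 1 library left out, 10 to 12 of them among the 12 called with all libraries. Apart from the counts with no minimum fold, no share over all genes is given for these alternatives.

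For age in γ KCs the 1 gene became 3 against the dSERT-TMKO/WT day 0 library alone, 5 against the dSERT16/dSERT4 library alone, 2 with a minimum of 2000 UMIs, and 0 with a fold of at least 2, with thinned cells or without the clusters led by mitochondrial genes. In α/β KCs the 3 became 6 against the dSERT-TMKO/WT library alone, 5 with TMM factors and 0 with a fold of at least 2. In α′/β′ KCs the 1 became 4 and 5 against the dSERT-TMKO/WT and dSERT16/dSERT4 libraries alone, 2 with TMM factors or a minimum of 2000 UMIs, 3 with thinned cells and 0 with a fold of at least 2. No share over all genes is given for these age alternatives. Alternatives that left out rn-led, mixed or (for age) mitochondrial clusters or the 20 non-neuronal cells were chosen after seeing the data. The causes were not tested. The tested comparisons were paired by library through the block, and the labels give no replicate numbers to pair further. With a minimum of 2000 UMIs, genes of the non-neuronal cells were among the leading genes of the α′/β′ cluster at day 4 to 6.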
